A study of Mus musculus with 2 samples.

Results

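The genes of the MHC class I molecule were examined in CT26 cells, a mouse colon carcinoma line, with and without knockdown of Setdb1, a histone H3 lysine methyltransferase. The set was given by name and held 9 of the 54680 loci of the deposited expression table. It comprised 2 classical heavy chain genes (H2-K1 and H2-D1), 6 non-classical heavy chain genes (H2-Q4, H2-Q6, H2-Q7, H2-T22, H2-T23 and H2-M3) and the light chain gene B2m. RNA from 2 libraries had been sequenced. The library CT26shSetdb1 came from CT26 cells infected with lentivirus for a short hairpin RNA against Setdb1. The library CT26shCtrl came from CT26 cells, given as wild type, that received the same kind of virus with only the empty knockdown vector. Both cultures were grown for 6 days in RPMI medium with serum. The labels call the knockdown cells differentiated and say that cells were grown until the knockdown cells looked clearly different, so the time of harvest followed their appearance. They name 1 knockdown construct and do not say whether the empty vector made any hairpin or whether the cells were a clone.

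An MHC class I molecule is a heavy chain that spans the membrane, the light chain B2m (beta-2-microglobulin) and a short peptide held in the groove of the heavy chain. Classical heavy chains are made by most cell types and show peptides from inside the cell to CD8+ T cells. Non-classical heavy chains have narrower roles, among them the presentation of signal peptides and of formylated peptides, and recognition by NK cells or gamma delta T cells. Interferons and NF-kappaB are known to raise transcription of class I genes through a compact promoter module.

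Of the 9 genes, 8 had reads, and in each of these 8 the level was higher in knockdown cells. The fold in FPKM (fragments per kilobase of gene model, here scaled to a depth common to both libraries) ran from 1.36 for H2-M3 to 7.54 for H2-T23 among the 7 genes that reached 1 FPKM in both libraries. H2-Q6 had 7 reads in control cells, and H2-Q7 had 0 reads in both. With 1 library in each group there is no replicate check, so every difference below is one between these 2 libraries and not between conditions, and no p-value is given. Intervals are 95% exact counting intervals. Those on a level are Poisson intervals, and those on a read ratio are Clopper-Pearson intervals on whole reads recovered from the FPKM values, each library relative to its own total. These intervals leave out every error but counting, since PCR copies without molecular identifiers are not independent molecules.

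The libraries were alike in depth, with 18421604 reads in control cells and 19045830 in knockdown cells. Setdb1 itself stood at 10.4 FPKM in control cells and 2.47 FPKM in knockdown cells. The labels call CT26 a colon cancer line, yet Epcam and Cdh1, which define epithelium, had 0 reads in both libraries. Of the 8 colon epithelium markers, 3 reached 1 FPKM (Krt18, Krt19 and Krt20). Krt18 and Krt20 were past 2-fold higher, and Krt19, with 1 and 53 reads, reached 1 FPKM only through the knockdown library. The sum of the 8 went from 43.2 to 128 FPKM, whose part in the class I differences was not tested. The 5 mesenchymal markers summed to 1370 FPKM in control cells and 1565 FPKM in knockdown cells. Of these, 3 were higher (Fn1, Sparc and Vim) and 2 lower (Col1a1 and Col1a2), and 0 were past 2-fold. Reads of immune markers were few. Ptprc, present on all leukocytes, had 0 and 4 reads, the 4 T cell markers together 1 and 4, the 3 B cell markers 5 and 3, and the markers of NK cells and endothelium 0 in both. Of the 6 markers of macrophages and dendritic cells, 5 had 25 reads in control cells and 23 in knockdown cells, with Adgre1 and Itgam at 0. The other one, Cd68, a lysosomal glycoprotein, went from 10.4 to 100.2 FPKM, and its part in the class I differences was not tested.

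To show the module that class I promoters share, the 250 bases before the start are printed for the classical pair, for the genes with the highest and lowest fold among those that reached 1 FPKM in both libraries, and for the light chain. They are RefSeq promoters of the C57BL/6 reference (build GRCm38.p6), each read 5′ to 3′ along the gene, and a promoter was found for 9 of the 9 genes. CT26 derives from a BALB/c mouse of another class I haplotype (H2-d), so its own bases may differ. H2-K1 had 2 annotated starts, of which the upstream one is shown. RefSeq starts can differ from the deposited gene starts. The H2-D1 window lies inside the deposited H2-D1 locus, and others, such as that of H2-T23, overlap theirs in part. Capitals mark matches to the NF-kappaB consensus and to the interferon motifs ISRE core (interferon-stimulated response element, here 2 copies of GAAA with 2 bases between them) and GAANNGAAA (the interferon response sequence of class I promoters), on either strand.
H2-K1 (chr17:34000348-34000597, minus strand): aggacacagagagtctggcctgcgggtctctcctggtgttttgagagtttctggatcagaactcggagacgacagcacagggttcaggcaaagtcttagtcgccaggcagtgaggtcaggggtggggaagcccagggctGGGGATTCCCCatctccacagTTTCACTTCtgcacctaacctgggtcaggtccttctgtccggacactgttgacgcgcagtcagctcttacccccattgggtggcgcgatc
H2-D1 (chr17:35262844-35263093, plus strand): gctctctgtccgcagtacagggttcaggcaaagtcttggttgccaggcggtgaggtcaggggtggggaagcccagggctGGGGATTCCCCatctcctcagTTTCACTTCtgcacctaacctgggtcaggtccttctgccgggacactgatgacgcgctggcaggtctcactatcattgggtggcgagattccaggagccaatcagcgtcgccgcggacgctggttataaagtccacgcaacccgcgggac
H2-T23 (chr17:36032702-36032951, minus strand): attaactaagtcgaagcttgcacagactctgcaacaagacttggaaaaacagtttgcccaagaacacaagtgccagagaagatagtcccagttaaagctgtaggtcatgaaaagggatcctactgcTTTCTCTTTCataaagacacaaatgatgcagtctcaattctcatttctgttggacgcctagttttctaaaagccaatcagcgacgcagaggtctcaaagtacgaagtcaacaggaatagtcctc
H2-M3 (chr17:37269984-37270233, plus strand): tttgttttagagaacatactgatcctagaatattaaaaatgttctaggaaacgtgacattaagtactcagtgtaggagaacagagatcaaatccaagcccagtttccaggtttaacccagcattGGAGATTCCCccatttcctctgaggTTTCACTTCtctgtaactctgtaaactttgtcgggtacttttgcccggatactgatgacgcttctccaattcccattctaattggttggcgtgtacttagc
B2m (chr2:122147437-122147686, plus strand): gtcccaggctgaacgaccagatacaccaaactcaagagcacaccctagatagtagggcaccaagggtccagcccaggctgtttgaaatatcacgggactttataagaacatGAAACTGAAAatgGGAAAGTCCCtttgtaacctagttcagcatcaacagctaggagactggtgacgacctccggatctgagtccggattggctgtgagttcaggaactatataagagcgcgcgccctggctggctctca
In H2-K1 and H2-D1 the NF-kappaB match GGGGATTCCC was followed by TTTCACTTC, which is GAANNGAAA on the other strand. In H2-M3 the same TTTCACTTC followed GGAGATTCCC, its match to the NF-kappaB consensus. B2m held GAAACTGAAA just before its NF-kappaB match, and H2-T23 held TTTCTCTTTC and no NF-kappaB match in this window.

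Across the 10 promoters of the 9 genes, 9 held an NF-kappaB match, against 7.25% of the 32841 promoters of the same length in the table. The ISRE core occurred in 3 (B2m, H2-T22 and H2-T23) against 2.98% of all promoters, and GAANNGAAA in 7 (both starts of H2-K1, H2-D1, H2-M3, H2-Q4, H2-Q6 and H2-Q7) against 6.31%. The shorter motif was added after the data had been seen. Every one of the 10 held CCAAT, the letters of the Y box, against 33.9%, and 8 held TGACG, the letters at the start of a cyclic AMP response element, against 17.8%. TTCNNNGAA, the gamma-activated site, was found in 1, that of H2-M3, against 7.02%. NF-kappaB matches can overlap each other, the ISRE core and GAANNGAAA differ by 1 base in length, and the promoters of H2 genes descend from common ancestors. A match is a description of letters and not a bound site.

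Among the classical heavy chains, H2-D1 was the more abundant and H2-K1 had the larger fold. H2-D1 (ENSMUSG00000073411, chromosome 17, 35262730 to 35267499, plus strand) stood at 389 FPKM (18793 reads) in control cells and 937 FPKM (45267 reads) in knockdown cells. Its log2 ratio of (FPKM + 1) was 1.27 and its read ratio 2.33 (2.29 to 2.37). H2-K1 (ENSMUSG00000061232, chromosome 17, 33996017 to 34000333, minus strand) stood at 29.7 FPKM (1449 reads) in control cells and 117 FPKM (5729 reads) in knockdown cells. Its log2 ratio was 1.95 and its read ratio 3.82 (3.61 to 4.05), so the intervals of the 2 ratios did not overlap. The level of H2-D1 was 13.1 times that of H2-K1 in control cells and 7.99 times in knockdown cells. Both genes encode the heavy chains that present peptides to CD8+ T cells. The level ratio between them rests on how reads of H2-d alleles aligned to a C57BL/6 genome. BALB/c mice also carry H2-L, a classical gene next to H2-D1, which was not analysed here, and whether its reads were counted under H2-D1 was not tested.

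The 2 non-classical genes of the T region had the largest ratios among the members that reached 1 FPKM in both libraries. H2-T23 (ENSMUSG00000067212, chromosome 17, 36029773 to 36032855, minus strand) encodes the heavy chain of Qa-1, which presents leader peptides of other class I chains to CD94/NKG2 receptors of NK cells. It stood at 5.23 FPKM (283 reads) in control cells and 39.4 FPKM (2134 reads) in knockdown cells. Its log2 ratio was 2.70 and its read ratio 7.29 (6.44 to 8.29). H2-T22 (ENSMUSG00000056116, chromosome 17, 36037128 to 36042747, minus strand), whose product is a ligand of some gamma delta T cell receptors, stood at 13.9 FPKM (892 reads) and 68.5 FPKM (4378 reads). Its log2 ratio was 2.22 and its read ratio 4.75 (4.42 to 5.11).

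In the Q region, H2-Q4 had a read ratio close to that of H2-K1, and H2-Q6 and H2-Q7 were at or near 0. H2-Q4 (ENSMUSG00000035929, chromosome 17, 35379617 to 35385290, plus strand) encodes Qb-1, a non-classical chain. It stood at 21.8 FPKM (1060 reads) in control cells and 86.3 FPKM (4194 reads) in knockdown cells, a log2 ratio of 1.94. Its read ratio of 3.83 (3.58 to 4.10) overlapped in its interval with that of H2-K1. H2-Q6 (ENSMUSG00000073409, chromosome 17, 35424850 to 35430055, plus strand) and H2-Q7 (ENSMUSG00000060550, chromosome 17, 35439155 to 35443773, plus strand) belong to the Qa-2 genes. H2-Q6 was low, at 0.179 FPKM (7 reads) and 1.79 FPKM (70 reads). Its read ratio of 9.67 had a wide interval (4.46 to 24.9) that overlapped with that of H2-T23, and H2-Q6 passed the minimum of 1 FPKM only through the knockdown library. H2-Q7 had 0 reads in both, so no fold is given. A count of 0 allows up to 3 reads, or 0.0376 FPKM, in each library as a one-sided limit, and the upper bound of the Poisson interval, which is two-sided, was 0.0462 FPKM.

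H2-M3 had the smallest difference among the heavy chains with reads. H2-M3 (ENSMUSG00000016206, chromosome 17, 37270220 to 37274484, plus strand) presents N-formylated peptides, such as those of bacteria and mitochondria. It stood at 35.3 FPKM (951 reads) in control cells, above H2-K1 there in FPKM but not in reads. In knockdown cells it stood at 48.1 FPKM (1295 reads), below H2-K1, H2-Q4 and H2-T22. Its log2 ratio was 0.43 and its read ratio 1.32 (1.21 to 1.43). The other 6 heavy chains with reads had ratios whose intervals lay above that of H2-M3.

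B2m (ENSMUSG00000060802, chromosome 2, 122147686 to 122153083, plus strand), the light chain which pairs with each of these heavy chains, had the highest FPKM of the members in both libraries. It stood at 1134 FPKM (18263 reads) in control cells and 2079 FPKM (33491 reads) in knockdown cells. Its log2 ratio was 0.87 and its read ratio 1.77 (1.74 to 1.81), below that of each heavy chain with reads except H2-M3. Only 29 loci had a higher FPKM than B2m in control cells and 13 in knockdown cells. Summed over the 8 heavy chain members, the level was 495 FPKM in control cells and 1298 FPKM in knockdown cells. For each unit of summed heavy chain FPKM there were thus 2.29 units of B2m in control cells and 1.60 in knockdown cells.

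**Figure D1:**
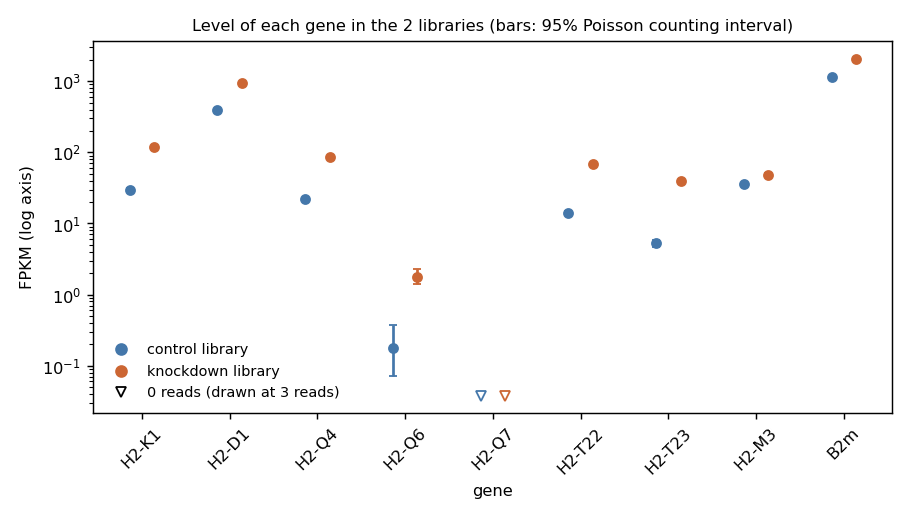
Level of each of the 9 genes in control (blue) and knockdown (orange) cells, in FPKM on a log axis, with 95% Poisson counting intervals. B2m and H2-D1 were the most abundant in both libraries, H2-M3 moved least among genes with reads, and H2-Q7, drawn as triangles at the level of 3 reads, had 0 reads in both.

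In order of level, the control library ran B2m, H2-D1, H2-M3, H2-K1, H2-Q4, H2-T22, H2-T23 and H2-Q6. The knockdown library ran B2m, H2-D1, H2-K1, H2-Q4, H2-T22, H2-M3, H2-T23 and H2-Q6. Within each library, no pair of neighbours in this order had overlapping counting intervals, the closest being H2-M3 and H2-K1 in control cells, 1.19-fold apart, and H2-M3 and H2-T23 in knockdown cells, 1.22-fold apart. What changed in the order was the place of H2-M3, from the third to the sixth. This order is one of FPKM, so it rests also on the deposited gene lengths, which counting intervals leave out. In control cells H2-K1 (2608 bases) had 1449 reads and H2-M3 (1438 bases) had 951. Whether the order holds with other lengths or with H2-d sequence was not tested.

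Counted against the rest of the transcriptome, 6 of the 9 genes were at least 2-fold higher on the log2 (FPKM + 1) scale. These were H2-K1, H2-D1, H2-Q4, H2-Q6, H2-T22 and H2-T23. Of the 10671 loci that reached 1 FPKM in either library, 6.81% were at least 2-fold higher, and 49.6% were higher by any amount. At least 2-fold lower were 4.85% of the loci and 0 of the 9 genes. B2m, at 1.83-fold in FPKM, and H2-M3, at 1.36-fold, were under the threshold. The median log2 ratio was 1.60 over the 8 genes that passed the minimum and 1.94 over the 7 that passed it in both libraries, beside -0.00039 over all 10671 loci. By size of the log2 ratio, 42 loci lay above H2-T23, 82 above H2-T22, 128 above H2-K1, 422 above H2-D1, 447 above H2-Q6, 963 above B2m and 2414 above H2-M3. H2-Q6 passed only through the library where it was high. Of the 7 genes that reached 1 FPKM in both libraries, 5 were at least 2-fold higher, and with no filter the count over the 9 genes was 6. The members had been chosen with results of these data known, so the count is a description.

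**Figure D2:**
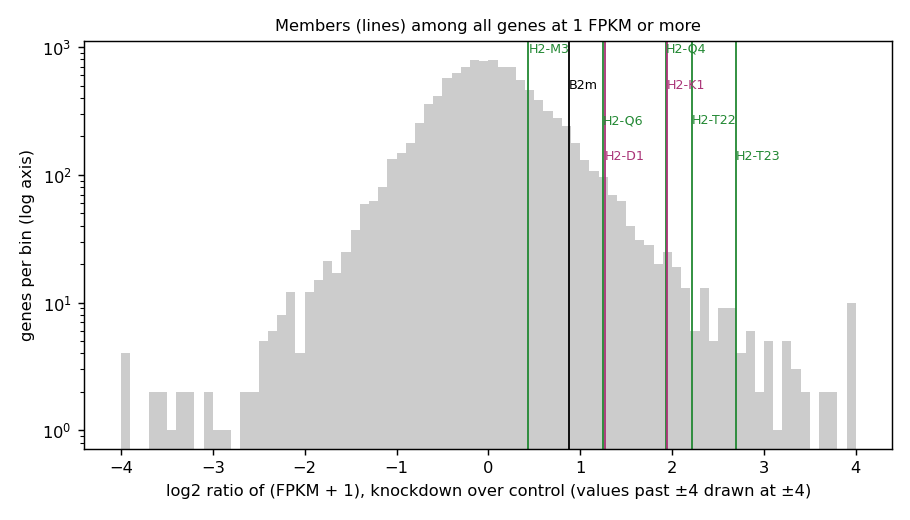
Distribution of the log2 ratio of (FPKM + 1), knockdown over control, over the 10671 loci at 1 FPKM or more (grey bars, number of genes per bin on a log axis), with the 8 genes that had reads as vertical lines. Classical chains are purple, non-classical chains green and B2m black, and the lines run from 0.43 for H2-M3 to 2.70 for H2-T23. Values past 4 in either direction are drawn at 4.

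Classical and non-classical heavy chains did not form separate groups. The 2 classical ratios, 1.27 and 1.95, lay within the range of the 5 non-classical genes at 1 FPKM or more, 0.43 to 2.70. The difference of the medians, classical minus non-classical, was -0.33, and it was 0.0170 without a filter, when H2-Q7 with its 0 reads entered. Read sums gave the same order as the main difference. The classical pair together had 20242 reads in control cells and 50996 in knockdown cells, a ratio of 2.44 (2.40 to 2.48). The 6 non-classical members had 3193 and 12071, a ratio of 3.66 (3.52 to 3.80). Most reads of the classical pair, 18793 and 45267, were those of H2-D1. H2-K1 alone had a ratio of 3.82 (3.61 to 4.05), whose interval overlapped with that of the non-classical sum. By region, the sum over the 5 H2-T loci had a ratio of 5.17 (4.88 to 5.48) and the sum over the 8 H2-Q loci one of 3.81 (3.57 to 4.07). That over the 14 H2-M loci had a ratio of 1.31 (1.20 to 1.42). The T region ratio was the highest of these 3 region sums, with intervals that did not overlap. In the H2-M sum, 951 of 975 control reads and 1295 of 1320 knockdown reads were those of H2-M3.

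Beyond the named members, the table held H2 class I loci by name to a total of 31, and 23 of these were no members. Those 23 summed to 308 reads in control cells and 1154 in knockdown cells, a ratio of 3.62 (3.19 to 4.12). The 4 with most reads were H2-T10, H2-Q1, H2-T24 and H2-Q5. H2-T24, a T region neighbour of H2-T23, had 1 read in control cells and 234 in knockdown cells, a read ratio of 226 with a counting interval of 40.2 to 8977. H2-T10, annotated as a polymorphic pseudogene and a close relative of H2-T22, had 208 and 654 reads, a ratio of 3.04 (2.60 to 3.57). H2-Q1 had 62 and 195 reads, a ratio of 3.04 (2.28 to 4.12), and H2-Q5 had 13 and 35, a ratio of 2.60 (1.34 to 5.36). H2-M10.1, named after its values were seen, was lower in knockdown cells, with 21 and 13 reads and a ratio of 0.599 (0.275 to 1.25), and did not reach 1 FPKM. Like H2-Q6, H2-T24 and H2-Q5 reached 1 FPKM only through the knockdown library. Of the 31 loci, 13 had 0 reads in both libraries.

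**Figure D3:**
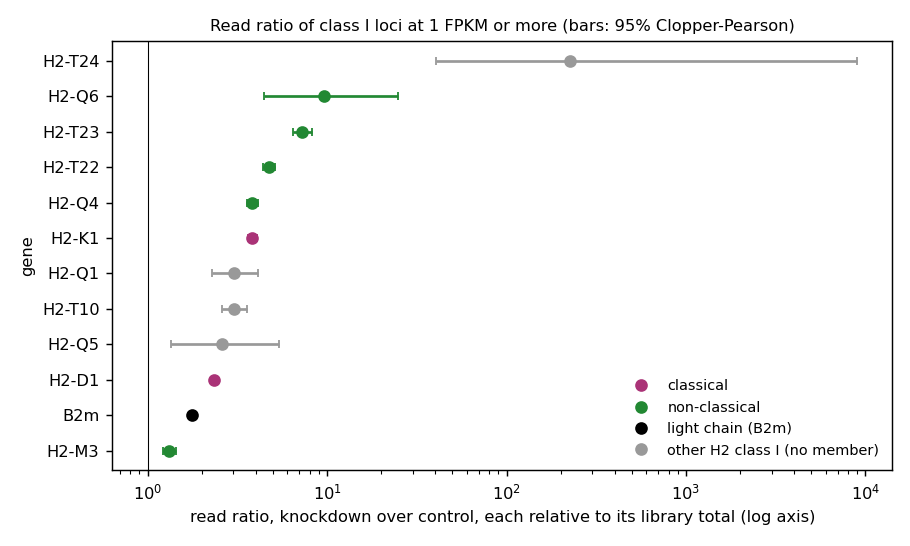
Read ratio of the class I loci that reached 1 FPKM in either library and of B2m, knockdown over control on a log axis, with 95% Clopper-Pearson intervals. Ratios ran from 1.32 for H2-M3 to 226 for H2-T24, whose interval is wide because the control library held 1 read.

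Paralogs of this family resemble each other, so the division of reads among them was examined in the reference transcripts (GENCODE M21). For windows of 150 bases, 100% of those of H2-K1, H2-M3 and B2m occurred in no other gene. The share was 98.6% for H2-D1, 99.7% for H2-T23, 94.1% for H2-Q7, 94.0% for H2-Q6, 90.1% for H2-Q4 and 77.7% for H2-T22. Most of the shared windows of H2-T22, 21.9% of all its windows, were shared with A930015D03Rik, an antisense locus that lies across H2-T23 and part of H2-T22 and had 0 reads in both libraries. Those shared by H2-Q4 belonged to the antisense locus Gm11131, with 12 and 28 reads. For windows of 50 bases the shares fell to 90.4% for H2-K1, 87.2% for H2-D1, 85.5% for H2-T23, 73.5% for H2-Q7, 65.0% for H2-Q6, 63.6% for H2-Q4 and 46.5% for H2-T22, and stayed at 99.4% for H2-M3 and 100% for B2m. At 50 bases the gene that shared most windows with H2-T22 was its paralog H2-T10, at 31.2% of them. H2-T10 had 208 and 654 reads. For H2-Q6 it was H2-Q7, at 13.9%, and for H2-Q4 still Gm11131, at 15.3%. The read length, the use of strand and the treatment of reads with several matches are not given in the sources used here. These shares hold for the C57BL/6 sequence, and how H2-d alleles of CT26 align to it was not tested. B2m lies entirely within the annotated span of Patl2 on the other strand, which had 11 and 4 reads. Likewise H2-T10 lies within Gm7030 on the same strand, and H2-T24 within A930015D03Rik on the other strand. Gm7030 and A930015D03Rik had 0 reads in both libraries, and whether reads in these overlaps were left uncounted was not tested.

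A sum over all 31 loci does not depend on how counted reads were divided among them, though it does on reads left uncounted. It was 23743 reads in control cells and 64221 in knockdown cells, a ratio of 2.62 (2.58 to 2.66). H2-D1 took 79.2% (78.6 to 79.7) of these reads in control cells and 70.5% (70.1 to 70.8) in knockdown cells. The share of H2-T23 went from 1.19% (1.06 to 1.34) to 3.32% (3.19 to 3.46), and that of H2-M3 from 4.01% (3.76 to 4.26) to 2.02% (1.91 to 2.13). Without H2-D1, the other 30 loci had a ratio of 3.70 (3.59 to 3.82).

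Genes that supply and load the peptide, or switch class I genes on, were followed in a list of 23, all at 1 FPKM or more. Of these, 6 were past 2-fold on the higher side and 0 on the lower side, beside 6.81% and 4.85% of all loci, and the list's median log2 ratio was 0.80. Psmb8 and Psmb9, catalytic subunits of the immunoproteasome, went from 8.61 to 27.2 FPKM (log2 ratio 1.55) and from 3.75 to 11.5 FPKM (1.39). Psme1, a subunit of the proteasome activator PA28, went from 50.8 to 130.7 FPKM (1.35). Tapbp, which encodes tapasin, the bridge between the peptide transporter and the heavy chain, went from 66.9 to 208.5 FPKM (1.62). Stat2 and Irf9, partners in the transcription factor that interferon activates, went from 5.21 to 27.5 FPKM (2.20) and from 6.34 to 26.0 FPKM (1.88).

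The members of the list did not all move the same way. By any amount, 18 were higher and 5 lower, beside 49.6% of all loci that were higher. The lowest was Erap1, the peptidase that trims peptides in the endoplasmic reticulum, from 3.36 to 1.94 FPKM (log2 ratio -0.57). Genes named here after their values were seen include both subunits of the peptide transporter, which went opposite ways. Tap1 had 1499 reads in control cells and 3077 in knockdown cells, a ratio of 1.99 (1.87 to 2.11), just under the threshold at a log2 ratio of 0.99. Tap2 had 3791 and 3018 reads, a ratio of 0.770 (0.734 to 0.808). Nlrc5, the transactivator of class I genes, had 215 and 450 reads, a ratio of 2.02 (1.72 to 2.39), but at 1.35 and 2.83 FPKM its log2 ratio of (FPKM + 1) was 0.70. Of the chaperones that fold the heavy chain, Calr had a read ratio of 1.69 (1.66 to 1.72), Pdia3 one of 1.20 (1.15 to 1.25) and Canx one of 0.707 (0.668 to 0.747). With a pseudocount of 0.1, 9 of the 23 were at least 2-fold higher, beside 1134 of the 10671 loci.

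**Figure D4:**
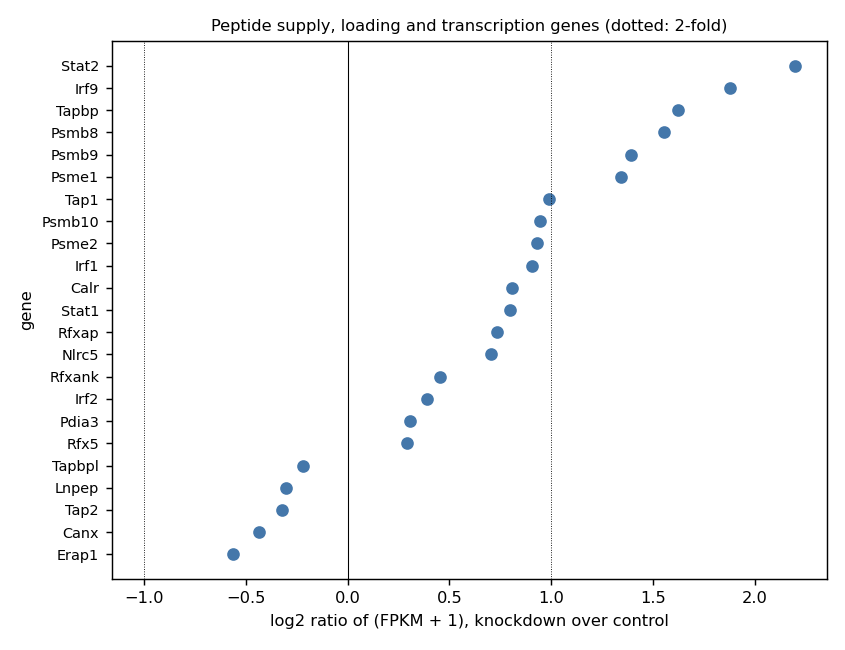
Log2 ratio of (FPKM + 1), knockdown over control, of the 23 genes of peptide supply, loading and class I transcription, with the 2-fold thresholds as dotted lines. From Stat2 at 2.20 to Psme1 at 1.35, 6 genes lay past the upper threshold, and Erap1 was lowest at -0.57.

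MHC class II genes, which present outside peptides on specialised immune cells, were mostly without reads. Of 11 genes, 2 reached 1 FPKM, and the other 9 had 2 reads in control cells and 3 in knockdown cells in all. Those 2 were Cd74, the invariant chain, from 11.2 to 18.9 FPKM (log2 ratio 0.70), and H2-DMa, a chain of the class II peptide exchanger, from 1.69 to 4.29 FPKM (0.98). Of 7 class I-like genes outside the H2 names, 3 reached 1 FPKM. Fcgrt, the heavy chain of the neonatal Fc receptor, went from 42.4 to 45.5 FPKM, with a read ratio of 1.04 (0.971 to 1.11). Hfe, which regulates iron uptake, went from 4.59 to 4.32 FPKM, with a read ratio of 0.911 (0.773 to 1.07). Procr, the endothelial protein C receptor, went from 12.8 to 19.5 FPKM (log2 ratio 0.57). Mr1, which presents vitamin metabolites to MAIT cells, did not reach 1 FPKM and had 27 and 90 reads, a ratio of 3.22 (2.08 to 5.16). The products of Fcgrt, Hfe and Mr1 also pair with B2m. The intervals of the ratios of Fcgrt and Hfe included 1, and that of Mr1 lay above 1.

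The class I genes of chromosome 17 lie among genes of other functions, so the neighbours were compared. Between the outermost H2 class I loci, 83 other loci reached 1 FPKM, of which 11 (13.3%) were past 2-fold on the higher side and 2 on the lower side, beside 6.81% and 4.85% of all loci, with a median log2 ratio of 0.0866. Apart from Psmb8 and Psmb9, those at 5 FPKM or more were Ier3, Tnxb, Pbx2, Gnl1 and Mir8094 on the higher side and Cdsn and Rnf39 on the lower side. Ier3, an immediate early gene of the stress response, went from 68.2 to 512 FPKM (log2 ratio 2.89). Cdsn, which encodes corneodesmosin, an adhesion protein of the skin, went from 73.5 to 6.28 FPKM (-3.36). Tnxb, which encodes the matrix protein tenascin-X, had a log2 ratio of 1.24, the homeobox gene Pbx2 one of 1.09, Gnl1 one of 1.02 and Rnf39 one of -1.15. Mir8094 rested on 2 and 12 reads. Among the 11 higher loci, Mir8094, Notch4, C4b and Gm25104 reached 1 FPKM only through the knockdown library. The filter thus fixed their direction. Around B2m, 7 other loci within 500 kb reached 1 FPKM, of which Shf (log2 ratio 1.36) and AA467197 (1.32) were past the threshold and 0 were 2-fold lower, beside the same shares of all loci, with a median of -0.11.

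**Figure D5:**
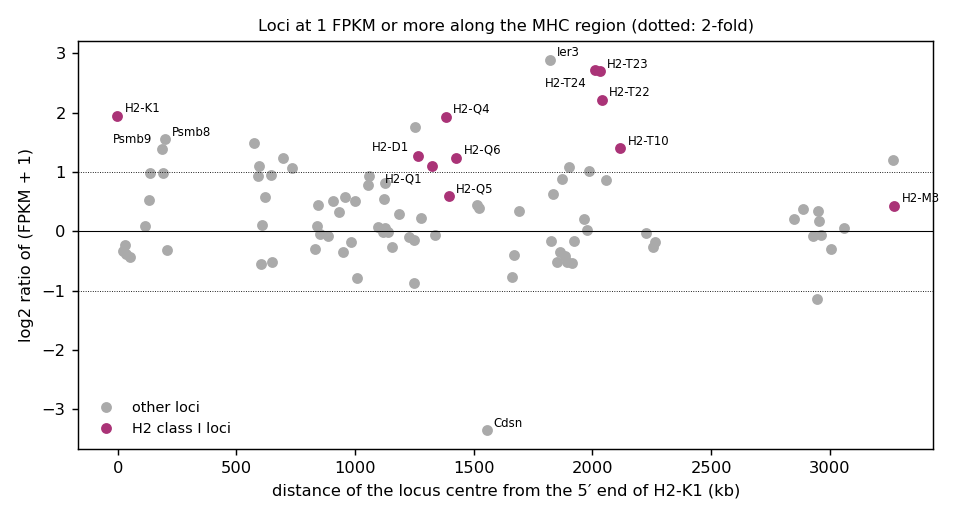
Log2 ratio of (FPKM + 1), knockdown over control, of every locus at 1 FPKM or more along the MHC region, against the distance of its centre from the 5′ end of H2-K1 in kb. The H2 class I loci drawn (purple) ran from 0.43 to 2.71, and 3 of them (H2-T24, H2-Q6 and H2-Q5) reached 1 FPKM only through the knockdown library, so the filter fixed their direction. Other loci (grey) were spread around a median of 0.0866, with Ier3 at 2.89 and Cdsn at -3.36. Some of these grey loci also reached 1 FPKM in only 1 library.

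With 2 libraries, likeness of pattern is only likeness of 2 levels. By Euclidean distance on log2(FPKM + 1), the 3 protein-coding genes outside the lists closest to H2-K1 were Egln1 (27.7 and 119 FPKM), Itga5 (35.1 and 112 FPKM) and Pfkl (24.3 and 114 FPKM). Those closest to B2m were Actb (1161 and 1569 FPKM), Hsp90ab1 (1129 and 1411 FPKM) and Tubb5 (918 and 1424 FPKM), all with smaller differences than B2m.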

How the data were processed

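RNA of knockdown and of control cells was sequenced, 1 library each. Groups were taken from the genotype labels, and columns were matched by library name. The submitters' processing notes name CASAVA, HISAT2, featureCounts 1.5.0-p3 and the build GRCm38, without roles or order. The authors deposited FPKM values with gene lengths and positions. Whole reads were recovered as FPKM times length over the smallest step, and 100% of values above 0 came out within 0.001 of a whole number. Both libraries had been divided by a common depth of 18731117 reads, so FPKM ratios carry the 1.03 ratio of the totals, while read ratios do not.

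Log2 ratios used a pseudocount of 1, a scale that understates changes at low levels, a minimum of 1 FPKM in at least 1 library and a 2-fold threshold. No test was run. The members and lists were chosen with earlier results of these data known. Named were all members, Setdb1, the 4 other H2 class I loci with most reads, the 2-fold changed and the lowest members of the list of 23, class II and class I-like genes at 1 FPKM, neighbours past 2-fold at 5 FPKM and the 3 genes closest in level to H2-K1 and to B2m. Positions are as deposited and equal GENCODE M21 for 8 of the 9 members, H2-K1 being the exception. Values were computed with pandas 2.3.3 and numpy 2.4.6, intervals with scipy 1.17.1 and figures with matplotlib 3.10.9, under Python 3.11.15. Ratios and intervals were tested on simulated data. Protein sequences were not used here.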

Additional observations from a re-analysis of the deposited data

How the results depend on the processing

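Alternatives were a pseudocount of 0.1, other filters, thresholds and scalings, means and other sets of loci. Scaling by own read totals and the sums without H2-D1 or by description were added after the data were seen. Under the 4 scalings the count of members at least 2-fold higher stayed at 6, beside 626 to 731 of the 10671 loci. At 4-fold it was 2, beside 116 loci, since that threshold is stricter. The members' median was 1.98 with a pseudocount of 0.1, 1.27 without a filter (H2-Q7 at 0 entered) and 1.94 with a filter at 5 FPKM (H2-Q6 left). The difference of classical and non-classical medians was -0.66 with a pseudocount of 0.1 and reversed to 0.0170 without a filter. The H2 class I sum, here taken on summed FPKM plus 1 and not on reads, had a log2 ratio of 1.40 in the main setting. This ratio was 1.77 without H2-D1, 1.35 scaled by own totals, 1.34 scaled without the 100 highest genes and 1.30 scaled by the upper quartile. Genes past 2-fold were 2004 with a pseudocount of 0.1, in place of 1245, 3327 at 1.5-fold and 172 at 4-fold. The list of 23 had 14 genes at least 1.5-fold higher, beside 1804 of the 10671 loci. At 4-fold it had 1, beside 116 loci, and its median was 0.95 with a pseudocount of 0.1. For values given here without a reason, the cause was not tested. Upper-quartile scaling put the median of all genes at -0.083 and the higher share of 2-fold genes at 50.4%, in place of 58.4%. Of 40 alternative values of single members, 31 stayed within counting error, 9 moved and 0 reversed, the widest being H2-Q6, from 1.18 to 2.76. Few or no reads limit H2-Q6 and H2-Q7. Whether depth, H2-d reads that did not align or reads left uncounted put H2-Q7 at 0 was not tested. No paired analysis was possible because control and knockdown were sequenced once each, which also leaves no library to omit.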
